A study of Mus musculus with 20 samples.

Results

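The genes that carry glucose to lactate and through the pentose phosphate pathway were examined in primary mouse renal myofibroblasts, in the presence and absence of WWP2, an E3 ubiquitin ligase. The set was defined by pathway role and gene symbol rather than by a measured value, though with earlier results of these data known. It held 36 genes of the 51826 in the count table. All 36 were matched to a row and all 36 passed the filter on low counts, which left 20407 genes for testing. Messenger RNA was sequenced from 20 libraries of second-passage cells that had grown out of minced C57BL/6J kidneys, with 5 libraries in each of 4 groups. WT untreated and WT TGFb1 libraries came from wild-type kidneys, and WWP2-/- untreated and WWP2-/- TGFb1 libraries (labelled KO) came from kidneys lacking the full-length and N isoforms of WWP2. The TGFb1 groups had received TGFb1, the cytokine that drives fibroblasts towards a contractile, matrix-secreting state. Dose, duration, age and sex are not given in the labels. The study's methods describe the points of its plots, unless stated otherwise, as separate mice or cells of separate mice, but neither they nor the labels say from which mouse each library came, so p-values measure the spread between these libraries. Because explant cultures can hold several kidney cell types, fewer cells of a type and less RNA per cell cannot be told apart in these bulk samples.

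Glycolysis splits glucose into pyruvate, and fibroblasts that turn into myofibroblasts are known to lean on it even when oxygen is present. Pyruvate then has alternative fates, since lactate dehydrogenase reduces it to lactate for export by monocarboxylate carriers, whereas pyruvate dehydrogenase feeds it to the mitochondria unless a pyruvate dehydrogenase kinase has switched that enzyme off. The pentose phosphate pathway branches off after the first step and yields NADPH and the ribose of nucleotides.

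Many genes of the pathway are textbook targets of the hypoxia-inducible factors, so the start regions of the members were read from RefSeq (GRCm38.p6), from 250 bases before to 50 bases after the annotated start. All 36 members had at least 1 such window, and the one nearest to the gene start was used. The windows of Hk2 and Pdk3, the members that passed the genotype test, and of Pgk1 and Slc16a3, whose untreated groups did not overlap, are shown 5′ to 3′ on the gene's strand, with ACGTG and GCGTG, the core letters of the hypoxia response element, in capitals on whichever strand they lie. The windows of Gapdh, whose untreated genotypes also did not overlap, and of Pkm and Pgd, whose TGFb1-treated genotypes did not overlap, are not printed. They hold 3, 0 and 1 of these matches, in that order. Hk2 is at chr6:82774405-82774704 on the minus strand, Pdk3 at chrX:93832101-93832400 on the minus strand, Pgk1 at chrX:106186850-106187149 on the plus strand and Slc16a3 at chr11:120948817-120949116 on the plus strand.
Hk2: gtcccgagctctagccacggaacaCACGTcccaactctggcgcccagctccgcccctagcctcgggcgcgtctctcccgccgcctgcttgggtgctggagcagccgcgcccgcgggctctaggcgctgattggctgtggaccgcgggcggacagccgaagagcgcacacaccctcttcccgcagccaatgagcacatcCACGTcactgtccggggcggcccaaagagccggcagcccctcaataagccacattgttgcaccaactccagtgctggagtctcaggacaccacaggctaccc
Pdk3: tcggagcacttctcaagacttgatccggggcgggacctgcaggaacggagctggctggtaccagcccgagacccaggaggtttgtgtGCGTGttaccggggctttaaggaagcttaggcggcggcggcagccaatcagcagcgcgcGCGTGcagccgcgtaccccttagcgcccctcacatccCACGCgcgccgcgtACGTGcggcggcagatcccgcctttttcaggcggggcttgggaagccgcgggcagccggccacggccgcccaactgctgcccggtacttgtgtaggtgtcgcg
Pgk1: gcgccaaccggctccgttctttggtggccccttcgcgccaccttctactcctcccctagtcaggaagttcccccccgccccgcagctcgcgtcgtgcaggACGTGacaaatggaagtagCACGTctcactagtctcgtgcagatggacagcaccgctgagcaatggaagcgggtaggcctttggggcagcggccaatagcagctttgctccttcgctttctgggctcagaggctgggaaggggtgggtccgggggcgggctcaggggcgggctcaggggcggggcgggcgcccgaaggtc
Slc16a3: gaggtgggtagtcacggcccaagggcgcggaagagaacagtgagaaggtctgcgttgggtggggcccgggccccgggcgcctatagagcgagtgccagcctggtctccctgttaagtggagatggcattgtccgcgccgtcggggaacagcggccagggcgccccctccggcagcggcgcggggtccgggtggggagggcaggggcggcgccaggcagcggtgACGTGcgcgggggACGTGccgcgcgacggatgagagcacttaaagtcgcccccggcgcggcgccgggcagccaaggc
At least 1 ACGTG or GCGTG on either strand lay in 30 of 36 member windows (83.3%) and in 43.8% of all 32851 RefSeq windows of the same length. ACGTG was in 15 member windows (41.7%, against 19.6% of all) and GCGTG in 23 (63.9%, against 32.4%), and windows with both count in each. CACGTG, the E-box, which contains ACGTG on both strands, was in 4 (11.1%, against 7.15%), and CAGAC, the core letters of the SMAD-binding element, in 13 (36.1%, against 49.6%). The median GC content was 60.7% in the member windows and 52.7% in all windows, and these matches are letters in a window, not measured binding sites.

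Libraries held 47520759 to 73063697 counts. Wwp2 was at 17.0 to 22.7 CPM (counts divided by the library size and scaled to a common size, with library sizes scaled by the trimmed mean of M values) in the WWP2-/- libraries and at 50.0 to 59.8 CPM in WT. Xist, the RNA of the inactive X chromosome, exceeded 1 CPM in 11 libraries. These were 4 of 5 WT untreated, 4 of 5 WT TGFb1, 2 of 5 WWP2-/- untreated and 1 of 5 WWP2-/- TGFb1 libraries. Genotype and sex of the cells were thus largely confounded. In 5 libraries both Xist and Y-linked RNA exceeded 1 CPM, so Xist does not mark cells of a single sex there. They were WT untreated replicates 1, 2 and 5, WT TGFb1 replicate 1 and WWP2-/- untreated replicate 1. Acta2, the defining myofibroblast actin, was at 38.9 CPM in WWP2-/- untreated replicate 3 and 50.4 CPM in WWP2-/- TGFb1 replicate 1, against 1016 CPM or more elsewhere, and both libraries stood apart in the members as well. The summed level of 12 macrophage markers ranged from 84.4 to 479 CPM in WT TGFb1 libraries and from 93.4 to 3738 CPM in WWP2-/- TGFb1 libraries, and the median log2 fold change of these markers, WWP2-/- against WT, was 2.52 with TGFb1 and -0.84 untreated. Of the 12 tubular epithelial markers, Spp1, which encodes osteopontin and is also made by other cells, held 87.1% to 99.0% of the sum in each library. It ranged from 718 to 2707 CPM in WT TGFb1 and from 1288 to 14996 CPM in WWP2-/- TGFb1 libraries, and the other 11 together from 42.8 to 234 and from 13.3 to 612 CPM. The median over the 10 tubular markers tested was 2.03 with TGFb1 and -0.35 untreated. All 12 fibroblast and myofibroblast markers were tested. With TGFb1 edgeR called 3 of them lower in WWP2-/- libraries, Col1a1, Col1a2 and Postn. Of all tested genes, 6.07% were called in this comparison, so 0 calls in a list this short say little. Of 8 endothelial markers tested it called 2 lower, Kdr and Tek, but the median log2 fold change of the 8 was 0.60. Their sum ran from 30.0 to 190 CPM in WT TGFb1 (median 38.0) and from 12.1 to 181 CPM in WWP2-/- TGFb1 libraries (median 88.5). Among TGFb targets edgeR called Bhlhe40 higher. It called 0 of 12 macrophage, 0 of 10 tubular and 0 of 4 muscle and neuron markers.

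**Figure D1:**
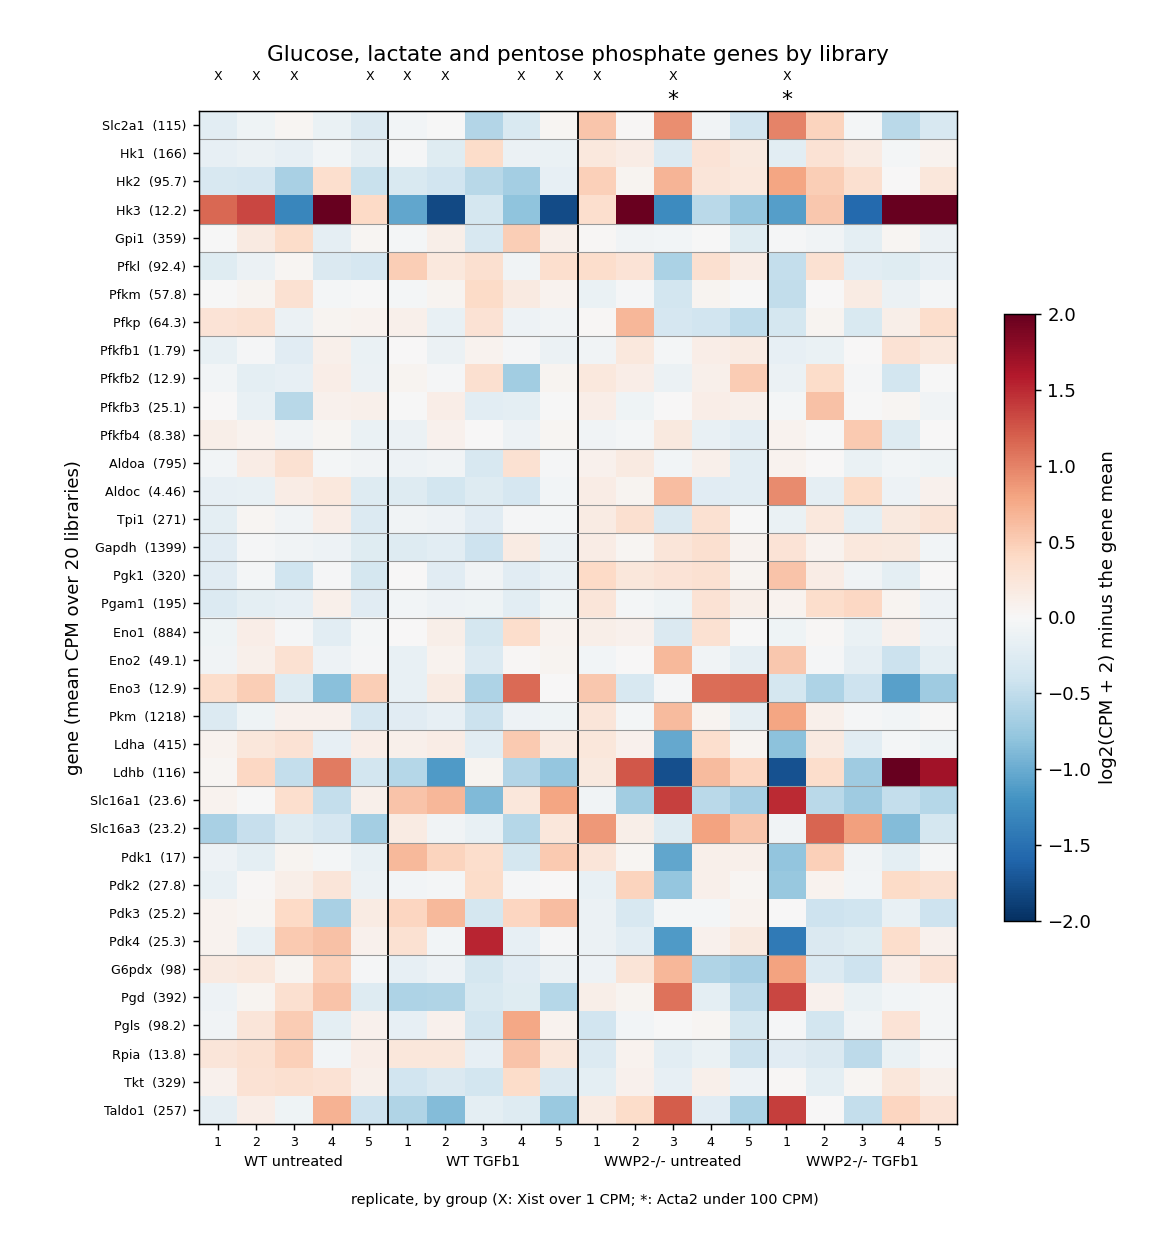
Level of each member (rows, in pathway order, with the mean CPM over 20 libraries) in each library (columns, replicates 1 to 5 by group), coloured by log2(CPM + 2) minus the gene's mean. Most rows were pale, Hk3 and Ldhb varied most, and the 2 libraries marked with a star for low Acta2 shared a pattern.

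Per length, Gapdh, the dehydrogenase at the centre of glycolysis, was the most abundant member at 338 CPM per kb of annotated exon. It was followed by Aldoa, the ubiquitous aldolase, at 273, Pkm, pyruvate kinase, at 244, and Eno1, the ubiquitous enolase, at 164. Further down the order were regulators and tissue-restricted isozymes, down to Pfkfb1, the liver and muscle form of the enzyme that makes fructose-2,6-bisphosphate, at 0.446 CPM per kb. Named copies of members, including pseudogenes of Gapdh, Pgk1, Pgam1 and Ldha, were counted at 1.65 CPM or less in any library. The sources used here do not say how reads matching several near-identical copies were counted.

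With TGFb1, WWP2-/- myofibroblasts had more Hk2 and less Pdk3 messenger RNA than WT, and the other 34 members did not pass the test. Leaving out 1 library at a time kept the Hk2 call in 10 of 10 fits but the Pdk3 call in only 2 of 10. The Pdk3 call was also lost with Xist as a covariate. In edgeR's quasi-likelihood test with Benjamini-Hochberg adjustment over all genes, 2 of 36 members were called, close to the 6.07% of all tested genes that were called in this comparison. At an unadjusted p below 0.05, 13 of 36 members passed, against 24.7% of all genes, of which 9 were higher in WWP2-/-, against 13.0% of all genes. DESeq2's Wald test called 7 members, against 13.1% of all genes with an adjusted p. With Xist as a covariate edgeR called 4 members, against 3.50% of all genes, and without the 2 libraries low in Acta2 it called 6, against 17.2%. The median log2 fold change was 0.10 over the members and 0.05 over all tested genes, and 21 members had a positive value. The groups did not overlap for Hk2, Pkm and Pgd, all 3 higher in WWP2-/-, against 5.67% of all genes not overlapping in either direction and 2.59% higher.

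Hk2 (ENSMUSG00000000628, chr6:82725025-82774454, GRCm38) encodes the inducible hexokinase, which commits glucose to metabolism and can dock on mitochondria. Its level was 73.6, 69.6, 61.8, 56.6 and 81.0 CPM in WT TGFb1 replicates 1 to 5 and 160, 129, 115, 91.4 and 107 CPM in WWP2-/- TGFb1 replicates 1 to 5. Each WWP2-/- library lay above each WT library, with the highest value in the replicate that was low in Acta2. The difference was a log2 fold change of 0.81 ± 0.18 (SE; 1.76-fold, edgeR adjusted p = 0.0162). Leaving out any 1 of the 10 libraries kept the call (edgeR adjusted p 0.0169 to 0.0412), as did leaving out both libraries low in Acta2, at a log2 fold change of 0.69 and an adjusted p of 0.0140. Among libraries with Xist, Hk2 was at 56.6 to 81.0 CPM in 4 WT libraries and at 160 CPM in the single WWP2-/- library. Of the libraries lacking Xist, the single WT one held 61.8 CPM and the 4 WWP2-/- ones 91.4 to 129 CPM. With Xist as a covariate the log2 fold change was 0.87 (adjusted p = 0.0300).

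Pdk3 (ENSMUSG00000035232, chrX:93764607-93832201, GRCm38) encodes an X-linked pyruvate dehydrogenase kinase. It was at 33.5, 39.3, 18.6, 33.7 and 38.4 CPM in WT TGFb1 replicates 1 to 5 and at 24.5, 17.8, 18.0, 21.8 and 17.7 CPM in WWP2-/- TGFb1 replicates 1 to 5. The groups overlapped because WT replicate 3, the WT TGFb1 library without Xist, lay within the WWP2-/- range. The log2 fold change was -0.71 ± 0.20 (0.610-fold, edgeR adjusted p = 0.0407). The 4 WT libraries with Xist held 33.5 to 39.3 CPM and the single WWP2-/- library with Xist 24.5 CPM, whereas without Xist the single WT library held 18.6 CPM and the 4 WWP2-/- libraries 17.7 to 21.8 CPM. With Xist as a covariate the log2 fold change was -0.36 (adjusted p = 0.201). The call was kept only without WWP2-/- TGFb1 replicate 1 or without WT TGFb1 replicate 3, and was lost when any 1 of the other 8 libraries was left out (edgeR adjusted p 0.00553 to 0.109 over the 10 fits). How far the sex of the cells contributed to the difference cannot be told apart from genotype. WT TGFb1 replicate 3 also had the largest macrophage and endothelial marker sums of its group (479 and 190 CPM). The part of cell composition in its Pdk3 value was not tested.

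**Figure D2:**
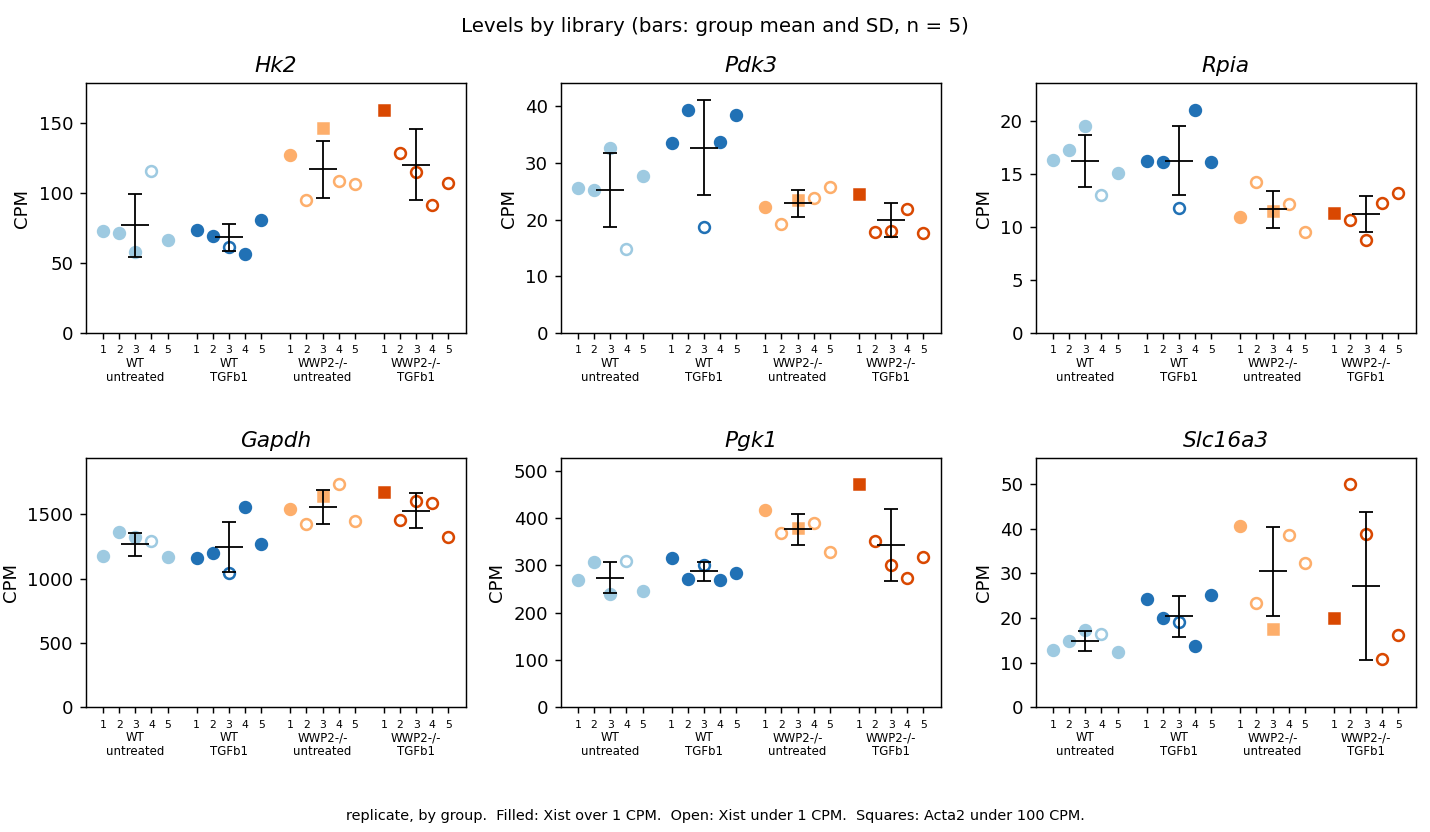
CPM of 6 members in each library (replicates 1 to 5 by group; filled symbols have Xist over 1 CPM, squares have Acta2 under 100 CPM, bars give the group mean and SD, n = 5). Hk2 separated WT TGFb1 from WWP2-/- TGFb1, while the open WT points for Pdk3 and Rpia (18.6 and 11.8 CPM with TGFb1) lay within the WWP2-/- range.

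The member just outside the threshold was Rpia, the isomerase that makes ribose-5-phosphate. It was at 16.2, 16.1, 11.8, 21.0 and 16.1 CPM in WT TGFb1 replicates 1 to 5 and at 11.3, 10.7, 8.80, 12.2 and 13.2 CPM in WWP2-/- TGFb1 replicates 1 to 5 (log2 fold change -0.53 ± 0.16, edgeR adjusted p = 0.0517). As with Pdk3, the WT library without Xist lay inside the WWP2-/- range, and the covariate for Xist gave -0.41 (adjusted p = 0.160).

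Of glucose entry and the upper steps, Slc2a1, the basal glucose transporter, had a log2 fold change of 0.39 ± 0.27 (edgeR adjusted p = 0.384), with 220 CPM in the Acta2-low replicate and 74.8 to 151 CPM in the other WWP2-/- TGFb1 libraries. Hk1, the housekeeping hexokinase, differed by 0.07 ± 0.12. Hk3 had 2.89 ± 1.05, the largest value of any member (edgeR adjusted p = 0.102). It was at 0.541 to 4.97 CPM in WT and at 1.03 to 35.9 CPM in WWP2-/- libraries, and is described below beside macrophage markers. Of the phosphofructokinases, which catalyse the main control step, the liver form Pfkl had -0.41 ± 0.17 (adjusted p = 0.152), the muscle form Pfkm -0.22 ± 0.12 and the platelet form Pfkp -0.03 ± 0.20. The values for the Pfkfb genes lay between 0.01 (Pfkfb2) and 0.19 (Pfkfb3), and Gpi1, which isomerises glucose-6-phosphate, had -0.17 ± 0.13. None of these passed the adjusted edgeR test. Hk3 and Pfkl had unadjusted edgeR p-values of 0.0132 and 0.0289, and DESeq2's Wald test called Hk3.

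In the lower steps, Gapdh averaged 1528 ± 138 CPM (SD, n = 5) in WWP2-/- TGFb1 and 1245 ± 191 CPM in WT TGFb1 libraries (log2 fold change 0.30 ± 0.12, edgeR adjusted p = 0.140). Pgam1, phosphoglycerate mutase, had 0.28 ± 0.11 (adjusted p = 0.126), the brain aldolase Aldoc 0.79 ± 0.28 (adjusted p = 0.0930) and the muscle enolase Eno3 -1.03 ± 0.40 (adjusted p = 0.120). Pkm was at 1150 to 2063 CPM in WWP2-/- and at 887 to 1126 CPM in WT libraries, and the groups did not overlap, yet its log2 fold change of 0.39 ± 0.18 did not pass (adjusted p = 0.185). Aldoa, Tpi1, Pgk1, Eno1 and Eno2 had values between -0.10 and 0.25.

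For lactate, Ldha, the muscle-type subunit, had -0.32 ± 0.22 (edgeR adjusted p = 0.376) and Ldhb, the heart-type subunit, 1.51 ± 0.60 (adjusted p = 0.129). The carriers Slc16a1 (MCT1) and Slc16a3 (MCT4, the lactate exporter of glycolytic cells) had -0.26 ± 0.51 and 0.41 ± 0.33. The remaining kinases Pdk1, Pdk2 and Pdk4 had -0.48 ± 0.27, -0.02 ± 0.22 and -0.72 ± 0.37. In the pentose phosphate pathway, Pgd, the second NADPH-yielding enzyme, was at 333 to 926 CPM in WWP2-/- and at 238 to 307 CPM in WT libraries without overlap (log2 fold change 0.83 ± 0.30, adjusted p = 0.105). Taldo1, transaldolase, had 0.98 ± 0.34 (adjusted p = 0.0904), G6pdx, the rate-limiting X-linked entry enzyme, 0.37 ± 0.24, Tkt, transketolase, 0.21 ± 0.13, and Pgls -0.17 ± 0.19. The highest values of Pgd, Taldo1 and G6pdx in this group (926, 616 and 167 CPM) all belonged to the library low in Acta2.

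**Figure D3:**
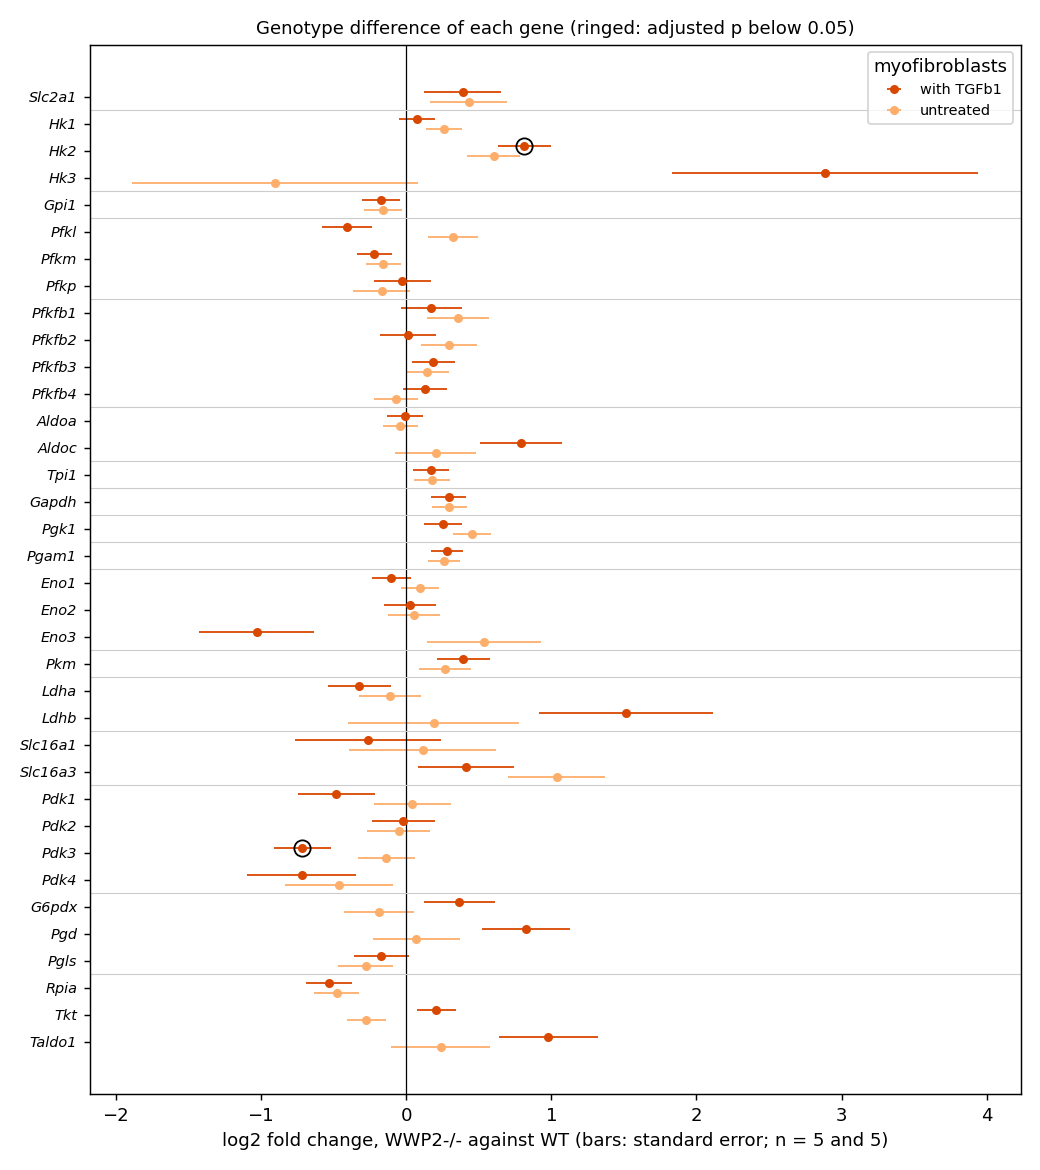
Log2 fold change of each member, WWP2-/- against WT, with TGFb1 (dark) and untreated (light); bars give the standard error, n = 5 libraries a group, and rings mark an adjusted p below 0.05. Only Hk2 (0.81) and Pdk3 (-0.71) with TGFb1 were ringed.

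In untreated cells no member was called by edgeR, against 0.725% of all genes. At an unadjusted p below 0.05, 6 members (Hk2, Gapdh, Pgk1, Pgam1, Slc16a3 and Rpia) passed, against 14.9% of all genes, and DESeq2's adjusted test called Pgk1 and Rpia, against 3.89% of all genes with an adjusted p. The groups did not overlap for Gapdh, Pgk1 and Slc16a3, each higher in WWP2-/-, against 2.79% of all genes in either direction and 1.50% higher. The median log2 fold change was 0.10 over the members and 0.08 over all genes.

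Pgk1, the X-linked kinase that makes the first ATP of glycolysis, was at 268, 307, 239, 310 and 246 CPM in WT untreated replicates 1 to 5 and at 416, 368, 380, 389 and 327 CPM in WWP2-/- untreated replicates 1 to 5. The lowest WWP2-/- value lay above the highest WT value, which was in the WT library without Xist (log2 fold change 0.46 ± 0.13, edgeR adjusted p = 0.110). Slc16a3 was at 12.9, 14.9, 17.4, 16.5 and 12.5 CPM in WT and at 40.5, 23.3, 17.5, 38.6 and 32.2 CPM in WWP2-/- libraries, where the lowest WWP2-/- value was that of the library low in Acta2 (1.04 ± 0.33, adjusted p = 0.164). Gapdh was at 1178, 1363, 1326, 1290 and 1167 CPM in WT and at 1544, 1420, 1638, 1732 and 1447 CPM in WWP2-/- libraries (0.30 ± 0.12, adjusted p = 0.264).

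Untreated Hk2 was at 72.7, 71.7, 57.8, 116 and 66.3 CPM in WT and at 127, 95.1, 147, 109 and 106 CPM in WWP2-/- libraries (log2 fold change 0.60 ± 0.18, edgeR adjusted p = 0.134). The WT value of 116 CPM, in the WT untreated library without Xist, was the only one above the lowest WWP2-/- value, and without that library the log2 fold change was 0.76 (adjusted p = 0.0106). Untreated Pdk3 was at 25.6, 25.2, 32.7, 14.8 and 27.6 CPM in WT and at 22.3, 19.2, 23.5, 23.7 and 25.7 CPM in WWP2-/- libraries (-0.14 ± 0.20, adjusted p = 0.766). Its lowest value of all 20 libraries, 14.8 CPM, again fell in the WT library without Xist. That library, WT untreated replicate 4, also had the largest macrophage marker sum of all libraries (4182 CPM). In WWP2-/- untreated libraries Pdk3 was at 22.3 to 23.5 CPM with Xist and at 19.2 to 25.7 CPM without it. The library at 22.3 CPM held Xist at 33.6 CPM beside Y-linked RNA at 209 CPM, and the one at 23.5 CPM was low in Acta2. The parts of sex and of cell composition in these values were not tested.

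TGFb1 itself changed no member detectably in either genotype. In WT, edgeR called 0 of 36 members and 0% of all genes, and DESeq2 called 0 members and 0.132% of all genes. At an unadjusted p below 0.05, Hk3, Pfkl and Tkt passed in WT, against 6.85% of all genes, and Eno3 in WWP2-/-, against 3.49%. G6pdx was lower in every TGFb1-treated WT library (73.9 to 88.4 CPM) than in every untreated one (92.6 to 131 CPM), the only member without overlap in WT, against 1.35% of all genes. Its log2 fold change was -0.38 ± 0.24 (edgeR adjusted p = 0.861).

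In WWP2-/- cells edgeR called 0 of 36 members and 0% of all genes with TGFb1, and DESeq2 called 0 members and 0.255% of all genes. Eno3 was the only member whose groups did not overlap, against 0.377% of all genes, at 17.4, 8.70, 11.2, 27.1 and 27.6 CPM untreated and 8.45, 6.75, 8.07, 4.29 and 6.16 CPM with TGFb1 (log2 fold change -1.45 ± 0.40, edgeR adjusted p = 0.610). The effect of TGFb1 did not differ detectably between genotypes for any member. The interaction term called 0 members and 0% of all genes in edgeR and 0 members and 0.0490% of all genes in DESeq2, and at an unadjusted p below 0.05 Hk3, Pfkl, Eno3 and Tkt passed, against 6.98% of all genes.

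Isozyme composition was described as each gene's share of its family's CPM per kb. Aldoa held nearly all aldolase, with Aldoc at 0.383% to 0.646% in the group means. Eno1 led the enolases, with Eno2, the neuronal form, at 5.35% to 6.03%. Hexokinase and phosphofructokinase were mixed, with Hk2 at 35.9% to 45.4% and Pfkp at 11.9% to 14.8%. These shares depend on the merged length of all annotated exons, 13401 bases for Pfkp, 6675 for Pfkl and 3340 for Pfkm. Without length, Pfkp, Pfkl and Pfkm averaged 64.3, 92.4 and 57.8 CPM over the 20 libraries.

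No share differed between groups after adjustment over the 8 shares of a comparison. The lowest exact permutation p was for Hk2 in untreated cells, at 45.4% ± 9.21 in WWP2-/- and 35.9% ± 1.61 in WT libraries (SD, n = 5; exact two-sided p = 0.0397, adjusted p = 0.317). Pfkp was at 11.9% ± 0.678 in TGFb1-treated and 14.8% ± 2.23 in untreated WT libraries (exact p = 0.0476, adjusted p = 0.339). The Slc16a3 share of the 2 lactate carriers was 56.8% ± 20.6 in WWP2-/- untreated and 37.3% ± 6.90 in WT untreated libraries (exact p = 0.0794, adjusted p = 0.317). Without the WWP2-/- library low in Acta2 this difference was 28.6 percentage points and passed (exact permutation test, adjusted p = 0.0317), and that of the Eno2 share was -1.14 points and passed as well (adjusted p = 0.0317).

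**Figure D4:**
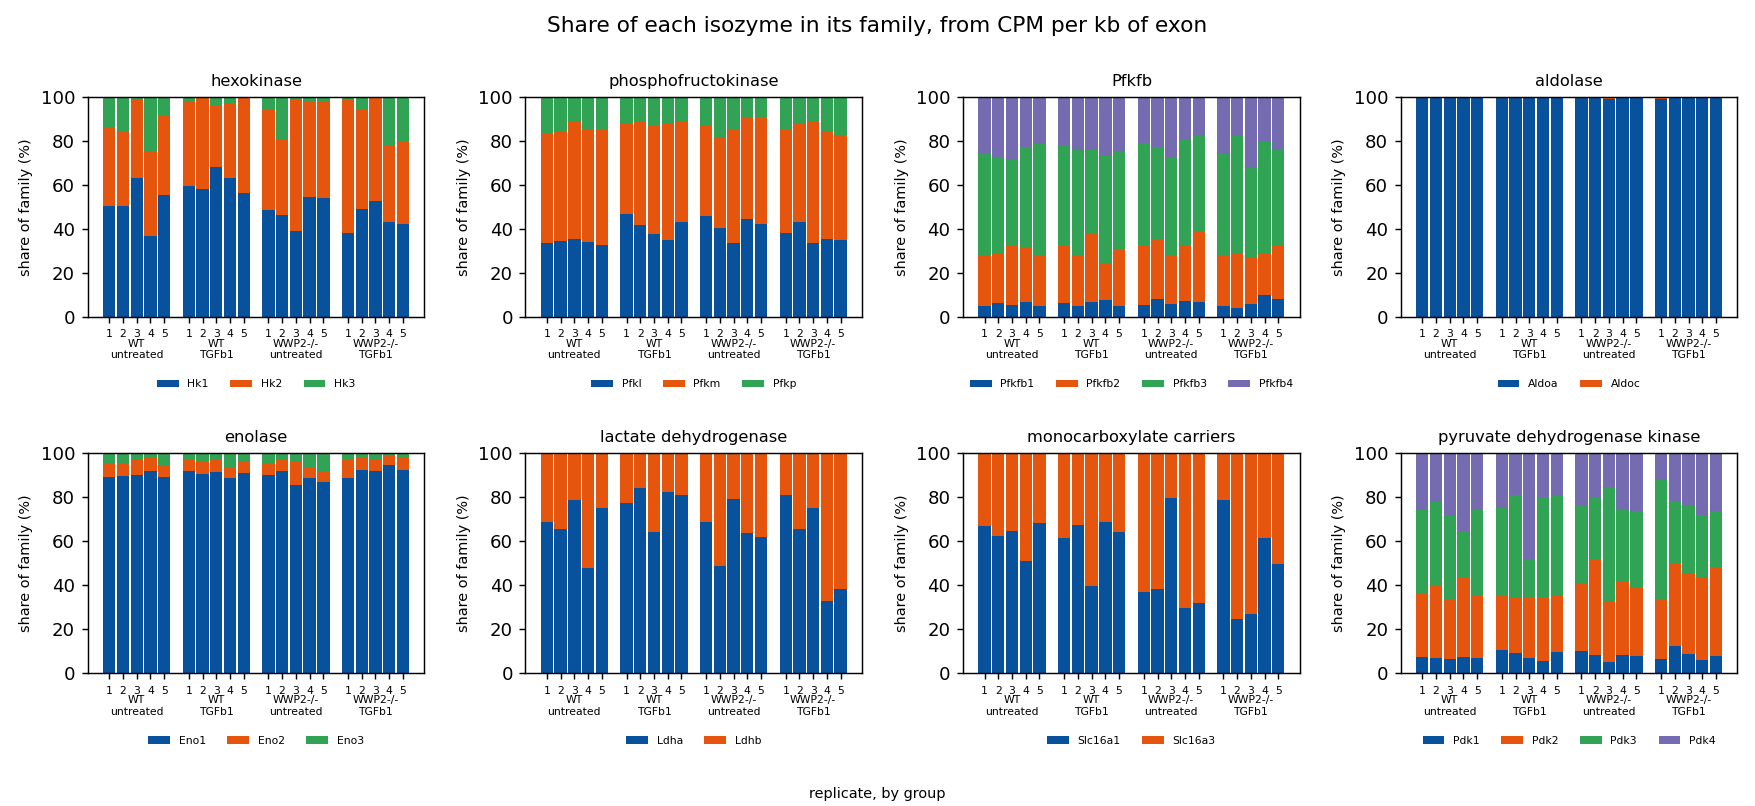
Share of each isozyme in its family's CPM per kb, in percent (stacked bars, one per library, replicates 1 to 5 by group). Aldolase was almost wholly Aldoa in every library, while the lactate dehydrogenase, lactate carrier and hexokinase bars varied between libraries of the same group.

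The 2 WWP2-/- libraries low in Acta2, singled out after their values were seen, held the 2 highest of the 20 values for 9 members, against 15.8% of all genes, and the 2 lowest for 7 members, against 14.0%. Highest were Slc2a1, Hk2, Aldoc, Eno2, Pkm, Slc16a1, G6pdx, Pgd and Taldo1, and lowest were Pfkl, Pfkm, Ldha, Ldhb, Pdk1, Pdk2 and Pdk4. Slc16a1 was at 56.6 CPM in the untreated and 62.0 CPM in the TGFb1-treated library and at 37.2 CPM or less in the other 18. Pgd was at 781 and 926 CPM and at 542 CPM or less elsewhere. Ldha was at 198 and 229 CPM and at 348 CPM or more elsewhere. High values of G6pdx and Pgd and low values of Ldha and Ldhb thus occurred in the same libraries, and what set these libraries apart was not tested.

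Hk3 and Ldhb ranged most widely and moved with markers of other cell types. Hk3, the hexokinase of myeloid cells, was at 0.541 to 46.2 CPM. Its highest values, 46.2 CPM in WT untreated replicate 4 and 35.9 and 35.6 CPM in WWP2-/- TGFb1 replicates 4 and 5, were in the libraries with the largest macrophage sums (4182, 3738 and 2711 CPM, of which Lyz2 held 77.2%, 77.4% and 76.0% and the other 11 markers 952, 846 and 652 CPM), and Ptprc, the pan-leukocyte marker, was there at 34.7, 22.2 and 20.8 CPM. The macrophage sum ran from 168 to 4182 CPM in WT untreated and from 95.3 to 1913 CPM in WWP2-/- untreated libraries, and all 12 markers were detected in each group. In the WT TGFb1 libraries, where Hk3 was at 0.541 to 4.97 CPM, Ptprc was at 0.510 to 5.21 CPM.

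Ldhb was highest in WWP2-/- TGFb1 replicates 4 and 5, at 382 and 291 CPM, where Spp1 was at 14996 and 11966 CPM, its highest values of the 20 libraries. The other 11 tubular markers summed there to 521 and 612 CPM, and their largest sum, 832 CPM, was in WWP2-/- untreated replicate 2, where Ldhb was at 216 CPM. The kidney cadherin Cdh16 was at 191 and 238 CPM in the 2 libraries with the highest Ldhb. In the 2 libraries low in Acta2, Cdh16 was at 0.866 and 0.606 CPM and Ldhb at 25.2 and 25.6 CPM. The sum of the 11 markers other than Spp1 was 14.8 and 13.3 CPM in these libraries, and it ran from 38.1 to 478 CPM in WT untreated and from 14.8 to 832 CPM in WWP2-/- untreated libraries. Of the 12 markers Slc34a1, the proximal tubule phosphate carrier, was at 0 in every library of 3 groups. The part of these cell types in the Hk3 and Ldhb values was not tested.

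**Figure D5:**
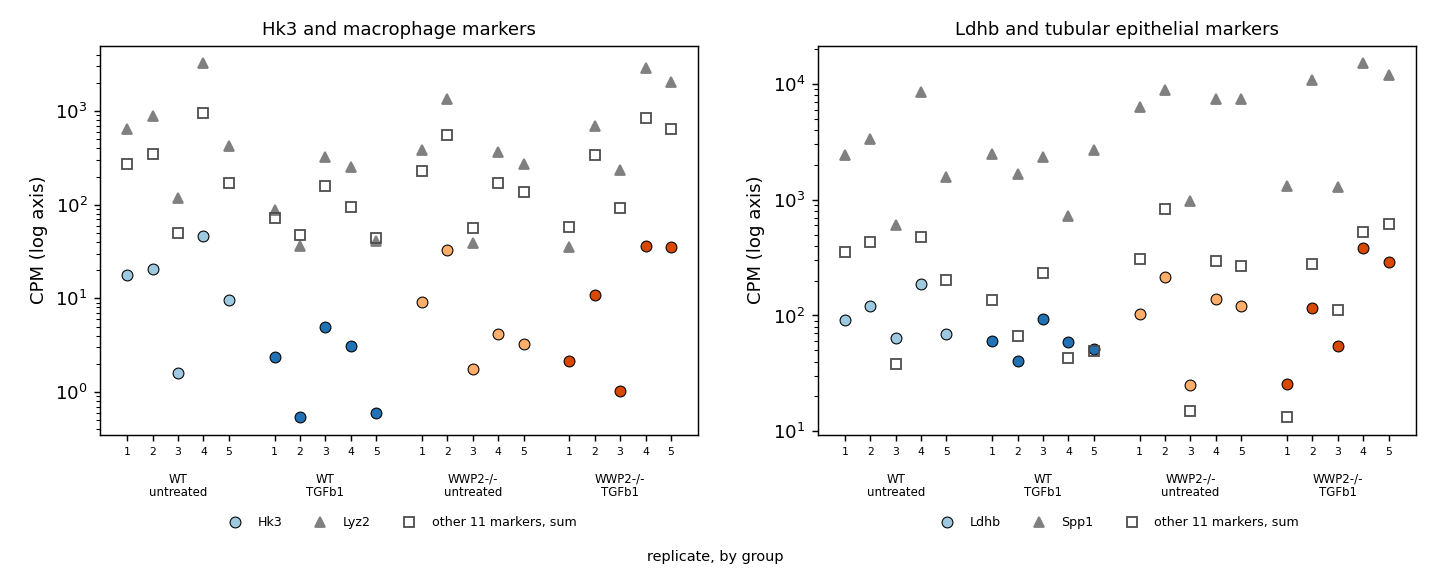
Hk3 with macrophage markers (left) and Ldhb with tubular epithelial markers (right), in CPM on a log axis, by library (replicates 1 to 5 by group). Circles are Hk3 or Ldhb, triangles the most abundant marker (Lyz2 or Spp1) and open squares the sum of the other 11, and the library with the highest Ldhb (382 CPM) had the highest Spp1 (14996 CPM) but not the highest sum of the others (521 against 832 CPM).

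Among genes next to the pathway, 3 of the 17 tested for pyruvate and lactate handling passed the genotype test with TGFb1, 1 higher and 2 lower, beside the 6.07% of all genes. Pdha1, the X-linked catalytic subunit of pyruvate dehydrogenase, was at 246, 256, 207, 220 and 268 CPM in WT TGFb1 replicates 1 to 5 and at 151, 164, 157, 132 and 153 CPM in WWP2-/- TGFb1 replicates 1 to 5. The groups did not overlap, the WT library without Xist (207 CPM) included (log2 fold change -0.66 ± 0.12, edgeR adjusted p = 0.00960; with Xist as a covariate -0.60, adjusted p = 0.0323). Pdp1, the phosphatase that reactivates pyruvate dehydrogenase, fell from 23.7 ± 2.86 CPM in WT to 16.0 ± 3.73 CPM in WWP2-/- libraries (SD, n = 5; edgeR adjusted p = 0.0482).

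The remaining lists held calls only among hypoxia-inducible genes. In the genotype comparison with TGFb1, 6.07% of all tested genes were called. There, edgeR called 0 of 26 tested genes of glucose transport, storage and gluconeogenesis (the most abundant was Pck2, at 48.3 to 169 CPM). It called 0 of 12 further pentose phosphate and NADPH genes (H6pd, 316 to 886 CPM) and 0 of 22 regulators (Hif1a, 158 to 506 CPM). Of 22 hypoxia-inducible genes outside glycolysis, 1 was called higher and 2 lower, beside the 6.07% of all tested genes. Plin2, which coats lipid droplets, rose from 152 ± 48.4 to 435 ± 96.1 CPM (edgeR adjusted p = 0.0137). P4ha2, a collagen prolyl hydroxylase, fell from 167 ± 41.9 to 84.7 ± 14.6 CPM (adjusted p = 0.0121), and Adm, adrenomedullin, from 92.5 ± 70.9 to 14.4 ± 13.7 CPM (adjusted p = 0.0372). The medians of these lists lay between -0.02 and 0.08 log2, near the 0.05 of all tested genes. In the untreated comparison, in both TGFb1 comparisons and in the interaction, edgeR called 0 genes of these 5 lists.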

How the data were processed

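RNA of 20 libraries of primary renal myofibroblasts had been poly-A selected and sequenced as read pairs. The authors mapped the reads with STAR to GRCm38 (mm10) and counted them on exons with featureCounts (versions not given in the sources used here), and the deposited values are raw counts per gene, without normalization. Genes were named and exon lengths taken from GENCODE M21. Genes reaching 5 counts in 5 or more libraries were kept and tested with the quasi-likelihood test of edgeR 4.0.16 (TMM normalization, 4 group means over all 20 libraries, Benjamini-Hochberg adjustment, threshold 0.05), and DESeq2 1.42.0 was an alternative. Shares were compared with an exact two-sided permutation test over 252 arrangements, whose smallest p is 0.00794. Members passing in at least 1 comparison were described in every library, the others by range and count, and of each further list at most 3 passing genes or its most abundant gene. A few passing genes of the further lists are not reported here by name. The members and lists were chosen with earlier results of these data known. The functions were tested on simulated data. A count of 0 allows up to 3 counts, at most 0.0613 CPM, which covers counting error only. Other settings tried were size factors, filters, a stricter threshold, a replicate block, Xist as a covariate, fits of only the 2 groups compared, and leaving out libraries.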

Additional observations from a re-analysis of the deposited data

Results flagged for a closer look

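In each group of 5 libraries, a library was singled out where its gap to the nearest other value exceeded the 95% limit of Dixon's test, which chance does in about 1 in 20 groups. Of 144 groups examined (36 genes in 4 groups), 18 had such a value.

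WWP2-/- untreated replicate 3, one of the libraries low in Acta2, accounted for 6 of them. It was the lowest of its group for Hk1 (137 CPM, next 182), Pfkl (57.4, next 99.9) and Pdk1 (6.90, next 16.9), and the highest for Eno2 (76.6, next 48.5), Slc16a1 (56.6, next 19.7) and Pgd (781, next 397). WWP2-/- TGFb1 replicate 1, the other library low in Acta2, was the highest of its group for Pkm (2063 CPM, next 1274), Slc16a1 (62.0, next 14.3) and Pgd (926, next 389).

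WT TGFb1 replicate 3, the WT TGFb1 library without Xist, was the lowest for Pdk3 (18.6 CPM, next 33.5) and the highest for Pdk2 (35.9, next 27.4) and Pdk4 (70.0, next 29.2). WT untreated replicate 4, the WT untreated library without Xist, was the highest for Hk2 (116 CPM, next 72.7) and Pgam1 (207, next 172). The other values were the highest of their groups, namely Hk3 in WWP2-/- untreated replicate 2 (32.9 CPM, next 9.23), Pfkm in WT untreated replicate 3 (71.0, next 59.7), Pfkfb3 in WWP2-/- TGFb1 replicate 2 (38.3, next 25.5) and Tkt in WT TGFb1 replicate 4 (420, next 265).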

How the results depend on the processing

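Hk2 kept its call in the TGFb1-treated genotype comparison under every alternative except the adjusted p threshold of 0.01, and Pdk3 lost its call in several (the cause was not tested). The number of members called there, 2, was 2 with DESeq2 size factors (5.97% of all genes were called), 3 with at least 10 counts in every library (7.73%), 1 without a filter (2.25%), 1 with only the 2 groups compared (2.88%), 0 at an adjusted p of 0.01 (0.495%), 4 with Xist as a covariate (Hk2, Aldoc, Pkm and Pdk4, beside 3.50%) and 7 with DESeq2's Wald test (Hk2, Hk3, Aldoc, Gapdh, Pdk3, Rpia and Taldo1, beside 13.1%). Leaving out 1 library gave 1 to 4. Leaving out the 2 libraries low in Acta2, an alternative chosen after seeing the data, gave 6 (Hk2, Hk3, Ldhb, Slc16a1, Pdk3 and Rpia), beside 17.2% of all genes. In untreated cells the count of 0 became 2 with DESeq2's Wald test (Pgk1 and Rpia, beside 3.89%), and leaving out 1 library gave 0 to 1, with Hk2 called without WT untreated replicate 4. The counts of 0 in both TGFb1 comparisons and in the interaction stayed 0 under every setting run. Of 3744 values of single members under these alternatives, 272 had the opposite sign to the reported value, and none of those was called in either.

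With the replicate block, 1 member (Hk2) was called in the TGFb1-treated genotype comparison, beside 3.28% of all genes, and 0 in the others. The numbers do not mark a shared source in the labels. Same-numbered deviations correlated at -0.53 to 0.52 in WT and -0.25 to 0.32 in WWP2-/-, so whether the block pairs related cultures is not known. The smallest p of the paired exact test of a share was 0.0625.

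No share passed under the planned settings, except that the Eno2 share (-1.14 percentage points) and the Slc16a3 share (28.6 points) in untreated cells passed without WWP2-/- untreated replicate 3, which is also the fit without the libraries low in Acta2. Over leave-one-out fits these differences ranged from -1.14 to 0.396 and from 16.1 to 28.6 points.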
